A study of Mus musculus with 6 samples.

Results

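The genes described here are 30 genes of the lysosome, chosen by name for their roles: 4 membrane proteins, 7 cathepsins with a tripeptidyl peptidase, 10 glycosidases, acid ceramidase with the saposin precursor, the regulator Tfeb and 5 genes of the proton pump. They were chosen with earlier results of these data known. All 30 were found on 1 line each, by Entrez identifier, among 22488 genes counted in 6 livers. The LPS group (n = 3) was given lipopolysaccharide, an endotoxin from the outer membrane of Gram-negative bacteria, by intraperitoneal injection (i.p.) at a dose of 6 mg/kg. According to the protocol, controls (n = 3) were injected i.p. with HBSS, a buffered salt solution (200 µl), although another label of these samples gives no treatment. Mice of both groups were male C57BL/6 animals of genotype WT, 6 to 8 weeks old, housed at 25 °C and fasted for 16 h. How long after injection the livers were taken is not stated in the labels, and nothing in the labels says that each library came from a separate mouse, so p values measure the spread between these samples only.

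The lysosome is an acidic organelle in which hydrolases break down proteins, glycans, lipids and nucleic acids delivered by endocytosis and autophagy. Its acidity is set by the V-ATPase, a rotary proton pump with a membrane sector (V0) that carries the protons and a cytosolic sector (V1) that hydrolyses ATP. Many lysosomal genes carry copies of a CLEAR element around the letters CACGTG, which TFEB and its relatives bind. Kupffer cells, the resident macrophages of the liver, are rich in lysosomes, and hepatocytes hold them too.

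LPS livers had lower RNA of most of these genes, and of 1 of them, the protease gene Ctsl, far more. All 30 passed the filter on low counts. At an adjusted p below 0.05 in edgeR's quasi-likelihood test, 19 of the 30 (63.3%) fell, where 31.0% of all 12078 tested genes did, and 5 (16.7%) rose, where 31.3% of all tested genes did; in either direction 62.3% of all tested genes passed. The 6 others were Scarb2, Ctsb, Ctsc, Ctsz, Idua and Atp6v1a. The median log2 fold change, LPS over control, was -0.49 for the 30 genes and 0.01 for all tested genes. Changes of at least 2-fold were seen for 1 riser (Ctsl) and 5 fallers (Tfeb, Gaa, Glb1, Gusb and Tpp1). The values of LPS and control livers did not overlap for 25 of the 30 (83.3%), against 67.4% of all tested genes. Since the 30 were chosen with earlier results of these data known, these shares describe the set and do not test it. Without LPS replicate 1, or without control replicate 3, the risers numbered 3 in place of 5.

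Levels are given in CPM, the gene's share of all counts in a library on a fixed common scale, with library sizes scaled by TMM, and errors are SD over 3 libraries unless named SE. The 6 libraries held 11488525 to 20282004 counts, and the smallest count of any of the 30 genes in any library was 24. Alb was the hepatocyte marker with the highest CPM, at 44168 to 65881 CPM in LPS livers and 71422 to 88310 CPM in control livers. In these libraries 10 of 11 tested Kupffer cell markers fell, 1 (Marco) rose, and the 12 listed summed to 86.6 to 138 CPM in LPS livers, against 360.0 to 412 CPM in control livers. All 9 tested neutrophil markers rose, and the 12 listed summed to 175 to 219 CPM in LPS livers and 5.61 to 9.19 CPM in control livers. Of 7 tested monocyte markers 6 rose, and the 10 listed summed to 1285 to 1658 CPM in LPS livers and 23.9 to 38.2 CPM in control livers. Cd14 alone had 1109 to 1500 CPM in LPS livers and 3.74 to 6.71 CPM in control livers, and without it the other 9 summed to 145 to 175 CPM in LPS livers and 20.2 to 31.5 CPM in control livers. Most of that remainder was Spp1, which is also on the cholangiocyte list, with 88.2 to 103 CPM in LPS livers and 12.9 to 20.2 CPM in control livers. Of 13 hepatocyte markers found of 14 listed, 9 fell and 1 rose, with a median log2 fold change of -0.69. Of 10 sinusoidal endothelial markers 6 fell and 2 rose, of 9 stellate cell markers 6 fell and 1 rose, and of 4 tested cholangiocyte markers 3 (Spp1 among them) rose and 1 fell. Of 4 tested T and NK cell markers 1 rose, and of 5 B cell markers 2 fell. Beside the counts of all these lists, 31.3% of all tested genes rose and 31.0% fell. The 1 riser of 4 and the 2 fallers of 5 were near these shares. None of the markers on these lists was at 0 counts in all 6 libraries. The part of these shifts in the values below was not tested, and in whole tissue fewer cells of a type and less RNA per cell cannot be told apart.

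**Figure D1:**
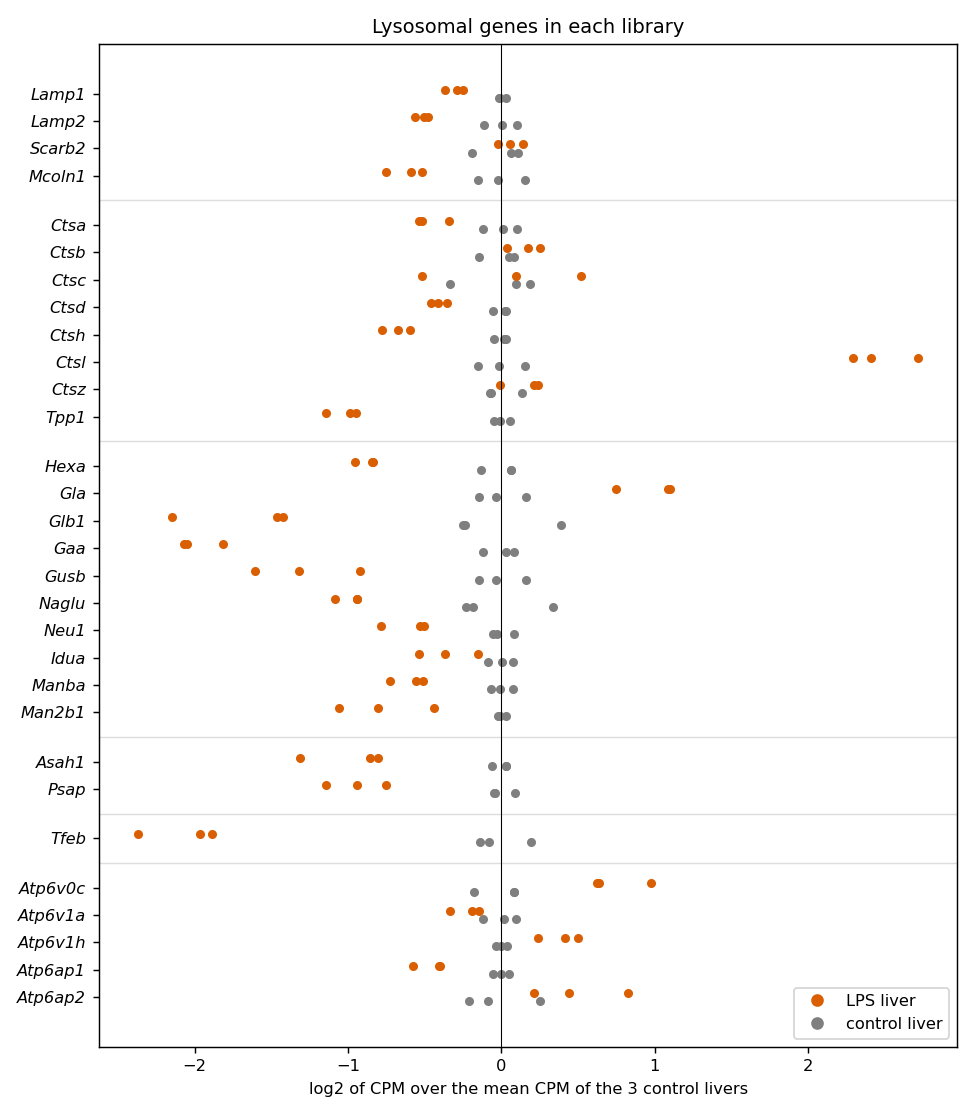
Log2 of CPM over the mean of the 3 control livers (x axis) for the 30 genes (rows, grouped by role from membrane proteins at the top to the proton pump at the bottom), with 1 point per library, LPS above control in each row. Most LPS points lie left of 0, and those of Ctsl lie farthest to the right (log2 fold change 2.49 in edgeR). Gla is the one glycosidase whose LPS points lie right of the control points.

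Tfeb, the transcription factor that drives many genes of lysosome and autophagy, had the largest fall of the 30 by value. Gaa (log2 fold change -1.97, SE 0.13) lay within the SE of Tfeb, so their order is not resolved. Tfeb lies on chromosome 17, 47737030 to 47792419 (GRCm38, as for all positions here). It had 2.56, 1.83 and 2.42 CPM in LPS livers, against 10.8, 8.95 and 8.59 CPM in control livers. All LPS values lay below all control values (log2 fold change -2.06, SE 0.26, adjusted p = 1.180e-05). The related factor Tfe3, which binds the same element, was higher, with 75.0, 73.1 and 92.7 CPM in LPS livers and 29.8, 31.1 and 29.4 CPM in control livers (log2 fold change 1.41, SE 0.13, adjusted p = 5.618e-07). The other 2 family members were named after their values were seen: on the log2 scale Mitf differed by -0.27 (SE 0.31) and Tfec by 0.30 (SE 0.72), and neither passed the test. RNA levels do not report the location of these proteins, which enter the nucleus when the nutrient kinase mTORC1 is inactive.

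**Figure D2:**
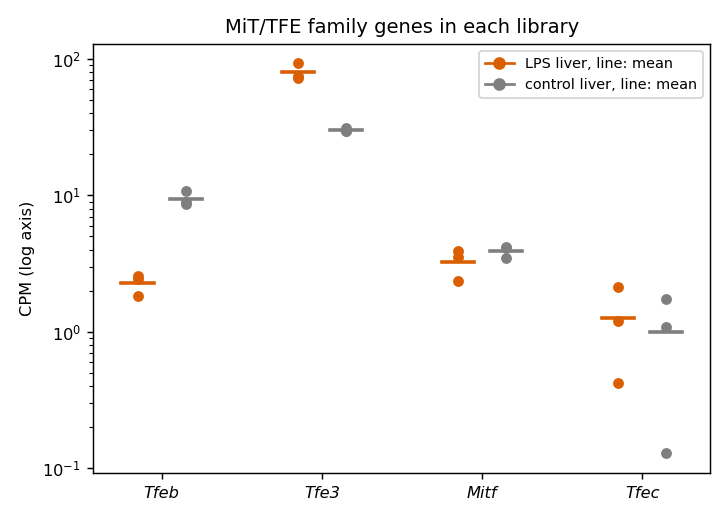
CPM on a log axis for Tfeb and its 3 relatives, with 1 point per library and a line at the group mean, LPS left of control for each gene. Tfeb averaged 2.27 CPM in LPS livers and 9.46 CPM in control livers, while Tfe3 averaged 80.3 CPM in LPS livers and 30.1 CPM in control livers.

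Around Tfeb, 23 of 24 listed genes of its family and of lysosomal nutrient sensing were tested, of which 8 fell, a share near the 31.0% of all tested genes, and 5 rose, beside 31.3% of all tested genes (median log2 fold change -0.15). Rptor, the substrate-binding subunit of mTORC1, fell (log2 fold change -0.88, SE 0.13), as did Tsc2, which restrains mTORC1 (-1.05, SE 0.16). Ywhag, a 14-3-3 protein with the highest CPM of the list over all 6 libraries but not within LPS livers, fell too (-0.72, SE 0.12). Rraga, a GTPase that brings mTORC1 to the lysosome, rose (log2 fold change 0.65, SE 0.14). The risers of this list numbered 3 without LPS replicate 1 or without control replicate 2.

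Promoters of 26 of the 30 genes, 250 bases before to 50 after the start, were available from RefSeq (GRCm38.p6); Ctsb, Ctsh, Asah1 and Atp6v1h were not among them. The letters CACGTG, the same on both strands, stood in the promoter of 10 of the 26 (38.5%), against 8.09% of 27025 genes in the table and 11.8% of those that were also tested here. The longer form TCACGTGA, which contains CACGTG and is also its own reverse complement, stood in 5 of the 26 (19.2%): Ctsa, Ctsd, Mcoln1, Atp6v1a and Gla, against 1.12% of all genes and 2.16% of tested ones. TCACGTGA with a G before it and a C after it, the full CLEAR palindrome of 10 letters, stood in 0 of the 26, against 0.37% of all genes. Of the 10 genes with CACGTG, 7 fell, 2 rose (Ctsl and Gla) and 1 (Atp6v1a) did not pass the test. Of the 16 without it, 10 fell, 2 rose and 4 did not pass. Both directions thus occur with and without these letters in this window, and a match is a description of the sequence, not a measured binding site. Many lysosomal genes are known to carry CACGTG, so the higher share among the 26 is no result of these data.

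Stretches before the RefSeq start that hold these letters are shown for 4 genes that fell (Lamp1, Mcoln1, Ctsd and Gaa) and for the 2 that rose (Ctsl and Gla), since the same letters stand beside changes in both directions; capitals mark CACGTG. Lamp1 held 4 copies, at 61, 45, 28 and 15 bases before the start, and Gla held 2, at 227 and 194 bases before it. For Mcoln1 and Ctsd 1 of 2 copies is shown. The stretches of Mcoln1, Ctsd and Ctsl lie inside the gene as annotated by GENCODE, although before the RefSeq start. Those of Lamp1, Gaa and Gla lie outside it.
Lamp1, chr8:13159088-13159160, plus strand: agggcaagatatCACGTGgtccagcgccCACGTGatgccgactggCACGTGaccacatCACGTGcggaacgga
Mcoln1, chr8:3500462-3500491, plus strand: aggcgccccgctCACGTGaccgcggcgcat
Ctsd, chr7:142387908-142387937, minus strand: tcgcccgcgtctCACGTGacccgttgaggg
Gaa, chr11:119267811-119267840, plus strand: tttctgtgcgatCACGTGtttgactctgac
Ctsl, chr13:64370739-64370768, minus strand: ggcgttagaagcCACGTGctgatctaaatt
Gla, chrX:134601182-134601244, minus strand: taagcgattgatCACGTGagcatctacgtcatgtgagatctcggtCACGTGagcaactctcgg

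Of the 4 membrane proteins 3 fell, each by less than 2-fold, and the median log2 fold change was -0.41. Among all tested genes 31.0% fell. Lamp2, which lines the inner face of the membrane and takes part in chaperone-mediated autophagy, had 517, 526 and 495 CPM in LPS livers and 678, 785 and 733 CPM in control livers. The groups were apart (log2 fold change -0.51, SE 0.12, adjusted p = 0.00240). Lamp1, its relative, had 364, 385 and 395 CPM in LPS livers, against 466, 465 and 479 CPM in control livers (-0.30, SE 0.12, adjusted p = 0.0370), which no longer passed the test without LPS replicate 1 (-0.29), LPS replicate 2 (-0.30) or control replicate 3 (-0.31). Mcoln1, the calcium channel of the lysosomal membrane, had 20.0, 16.9 and 19.0 CPM in LPS livers, below the 25.7, 28.2 and 31.8 CPM of control livers (-0.62, SE 0.14, adjusted p = 0.00182). Scarb2, the receptor that carries glucocerebrosidase to the lysosome, overlapped between groups, at 215 to 241 CPM in LPS livers and 191 to 236 CPM in control livers (0.06, SE 0.12).

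Ctsl, a cysteine endopeptidase (chromosome 13, 64359337 to 64370890), rose more than any other of the 30 genes. It had 3589, 3299 and 4437 CPM in LPS livers, against 748, 607 and 665 CPM in control livers. Even the lowest LPS liver stood far above the highest control liver, and the fold was 5.61 (log2 fold change 2.49, SE 0.16, adjusted p = 1.474e-08). Leaving out 1 library at a time gave log2 fold changes of 2.37 to 2.58. The 30 genes together summed to 7043 ± 702 CPM in LPS livers and 4913 ± 57.9 CPM in control livers, whereas the 29 without Ctsl summed to 3268 ± 127 CPM in LPS livers and 4239 ± 113 CPM in control livers. The sign of the summed difference thus rests on Ctsl.

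The other cathepsins fell modestly or overlapped. Ctsh, an aminopeptidase, had 137, 147 and 155 CPM in LPS livers and 240.1, 238 and 227 CPM in control livers (log2 fold change -0.68, SE 0.12, adjusted p = 1.740e-04). Ctsd, the main aspartic protease of lysosomes, had 181, 187 and 195 CPM in LPS livers and 253, 255 and 239.7 CPM in control livers (-0.41, SE 0.11, adjusted p = 0.00688). Ctsa, a serine carboxypeptidase that protects the sialidase Neu1 and beta-galactosidase in a shared complex, had 78.7, 80.0 and 90.2 CPM in LPS livers and 115, 105 and 123 CPM in control livers (-0.46, SE 0.12, adjusted p = 0.00447). In each of these 3 genes the LPS values were all below the control values.

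Ctsb, Ctsz and Ctsc, all cysteine cathepsins, did not pass the test. Ctsb had 469 to 545 CPM in LPS livers and 413 to 485 CPM in control livers (log2 fold change 0.16, SE 0.13), and Ctsz, an exopeptidase, 204 to 242 CPM in LPS livers and 195 to 225 CPM in control livers (0.15, SE 0.12). Ctsc, which activates the serine proteases of neutrophil granules, had the largest SE of the 7 cathepsins, with 44.3, 67.9 and 90.8 CPM in LPS livers and 50.1, 72.1 and 67.9 CPM in control livers (0.09, SE 0.21). The LPS livers of Ctsc spanned both sides of the control range. Tpp1, a tripeptidyl peptidase, fell without overlap: it had 54.5, 47.6 and 53.2 CPM in LPS livers and 109, 105 and 102 CPM in control livers (-1.02, SE 0.12, adjusted p = 4.973e-06).

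Per kilobase of 1 principal transcript a gene, Ctsl had the highest level of the 30 genes in both groups, with 1915 CPM per kb in LPS livers and 342 CPM per kb in control livers. Its share of the summed CPM per kb of the 7 cathepsins was 79.3%, 77.8% and 81.0% in LPS livers, against 40.3%, 35.4% and 38.1% in control livers. Ctsh held shares of 3.45% to 4.23% in LPS livers, against 15.8% to 16.9% in control livers, and Ctsd held 3.30% to 4.09% in LPS livers and 12.6% to 13.8% in control livers. These shares depend on the transcript length taken: with the union of all exons of protein-coding transcripts, an alternative chosen after seeing the data, the mean share of Ctsl was 55.6% in LPS livers and 16.6% in control livers. With that length Ctsl kept the first place among the cathepsins in LPS livers but not in control livers, where in each library its share, at 15.21% to 17.99% over the 3 libraries, lay below those of Ctsz (21.53% to 23.75%), Ctsh (20.5% to 21.34%) and Ctsd (17.96% to 18.98%).

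**Figure D3:**
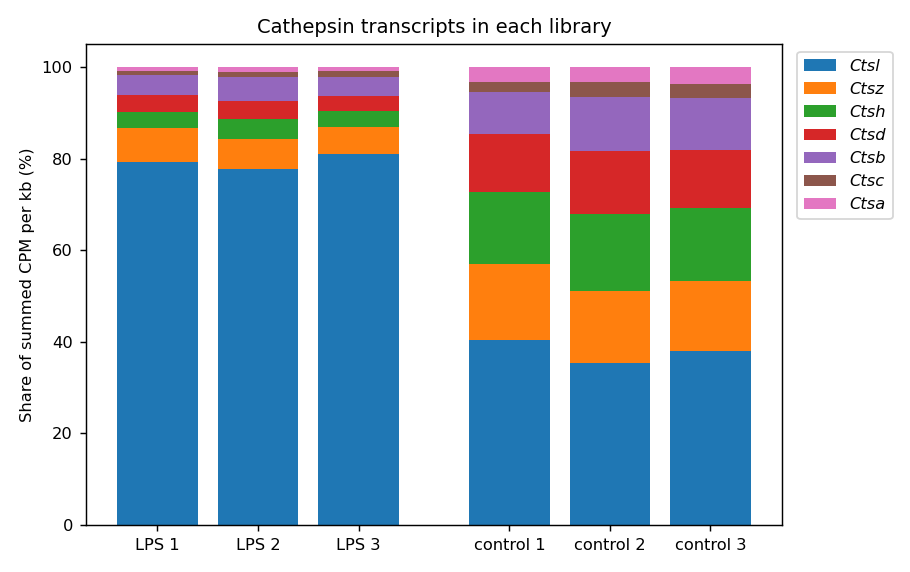
Share of each of the 7 cathepsins (colours) in their summed CPM per kb of transcript, with 1 stacked bar per library, LPS livers on the left. Ctsl fills 77.8% to 81.0% of the LPS bars and 35.4% to 40.3% of the control bars.

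Natural inhibitors of cathepsins and related proteases changed in both directions, with 1 riser and 2 fallers among the 4 tested of 10 listed. The shares among all tested genes were 31.3% higher and 31.0% lower, and the 1 riser of 4 was near the first of these. Cstb, a cytosolic inhibitor of cysteine cathepsins, had 53.3, 46.2 and 51.8 CPM in LPS livers and 32.4, 31.4 and 25.5 CPM in control livers (log2 fold change 0.76, SE 0.13, adjusted p = 2.066e-04). Cst3, a secreted inhibitor with the highest CPM of the list, had 165, 173 and 166 CPM in LPS livers and 245, 272 and 221 CPM in control livers (-0.55, SE 0.12, adjusted p = 0.00142). Lower still on the log2 scale was Serpinb1a, an inhibitor of neutrophil serine proteases (-3.13, SE 0.40, adjusted p = 1.402e-05). Its counts were low in LPS livers, at 4, 12 and 10 (0.341, 0.844 and 0.713 CPM), against 4.52, 5.25 and 7.31 CPM in control livers.

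Glycosidases, which remove sugars from glycogen, glycoproteins, glycolipids and glycosaminoglycans, fell almost throughout. Of the 10, 8 fell, 1 rose and 1 did not pass the test, beside 31.0% lower and 31.3% higher among all tested genes. The median log2 fold change of the 10 was -0.81. Their summed level was 183, 179 and 207 CPM in LPS livers and 408, 385 and 398 CPM in control livers. Gaa, the acid alpha-glucosidase that degrades glycogen in lysosomes (chromosome 11, 119267887 to 119285454), had 32.2, 31.7 and 37.9 CPM in LPS livers, against 136, 123 and 141 CPM in control livers. The highest LPS liver lay far below the lowest control liver (log2 fold change -1.97, SE 0.13, adjusted p = 1.775e-08), and by level per kilobase Gaa stood at place 21 of the 30 genes in LPS livers and at place 11 in control livers. Glb1, the beta-galactosidase of gangliosides and keratan sulfate, had 2.05, 3.38 and 3.28 CPM in LPS livers and 11.9, 7.69 and 7.63 CPM in control livers (-1.62, SE 0.29, adjusted p = 2.431e-04). Gusb, the beta-glucuronidase, had 10.1, 12.4 and 16.3 CPM in LPS livers and 34.5, 30.2 and 27.96 CPM in control livers (-1.25, SE 0.18, adjusted p = 3.367e-05).

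Smaller falls were seen in most of the remaining glycosidases, while Gla rose and Idua did not pass the test. Naglu, which acts on heparan sulfate, had 9.55 to 10.6 CPM in LPS livers and 17.3 to 25.6 CPM in control livers (log2 fold change -0.98, SE 0.19). Hexa, the alpha subunit of beta-hexosaminidase, had 22.6 to 24.6 CPM in LPS livers and 40.1 to 45.8 CPM in control livers (-0.88, SE 0.12). The alpha-mannosidase Man2b1 was the most spread of them in LPS livers, with 49.2, 41.3 and 63.4 CPM, against 87.8, 85.6 and 84.8 CPM in control livers (-0.75, SE 0.15, adjusted p = 6.271e-04). Neu1, the sialidase, and Manba, the beta-mannosidase, each fell by 0.60 on the log2 scale (SE 0.13 for Neu1 and 0.15 for Manba). Neu1 had 23.8 to 28.9 CPM in LPS livers and 39.4 to 43.4 CPM in control livers, and Manba 11.8 to 13.6 CPM in LPS livers and 18.6 to 20.5 CPM in control livers. Idua, which cleaves iduronic acid from glycosaminoglycans, had 8.27, 6.33 and 7.13 CPM in LPS livers and 8.65, 9.19 and 9.68 CPM in control livers: the groups were apart by a narrow margin, and the difference did not pass the test (-0.35, SE 0.21, adjusted p = 0.160).

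Gla, the alpha-galactosidase that removes the terminal galactose of globotriaosylceramide (X chromosome, 134588149 to 134601125), was the glycosidase that rose. It had 7.85, 6.19 and 7.91 CPM in LPS livers and 4.13, 3.60 and 3.33 CPM in control livers. Every LPS liver was above every control liver (log2 fold change 0.99, SE 0.25, adjusted p = 0.00349), and leaving out 1 library at a time gave 0.90 to 1.10. Per kilobase it was the least abundant of the 30 genes in control livers, at 1.16 CPM per kb, and had 2.31 CPM per kb in LPS livers.

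Psap and Asah1, which act in the breakdown of sphingolipids, both fell. Psap, the precursor of the saposins that present lipids to the hydrolases (chromosome 10, 60277627 to 60302597), had 303, 349.5 and 398 CPM in LPS livers and 648, 650.1 and 712 CPM in control livers (log2 fold change -0.94, SE 0.13, adjusted p = 3.903e-05). Asah1, the acid ceramidase, had 15.3, 15.8 and 11.1 CPM in LPS livers and 28.2, 26.5 and 28.2 CPM in control livers (-0.98, SE 0.16, adjusted p = 1.207e-04). Neither gene's groups overlapped.

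Of 37 other lysosomal hydrolases listed, 36 were tested, of which 21 fell and 4 rose, with a median log2 fold change of -0.53. Among all tested genes 31.0% fell and 31.3% rose. Lipa, the acid lipase of cholesteryl esters and triglycerides, had 41.3, 48.0 and 40.3 CPM in LPS livers and 257, 327 and 338 CPM in control livers (-2.83, SE 0.15, adjusted p = 1.986e-09). Lyz2, a lysozyme of myeloid cells, had 7.16, 9.77 and 12.3 CPM in LPS livers and 35.5, 44.9 and 44.4 CPM in control livers (-2.09, SE 0.19, adjusted p = 3.846e-07). Lgmn, the asparaginyl endopeptidase that processes cathepsins, had 109, 98.9 and 121 CPM in LPS livers and 52.6, 63.5 and 54.4 CPM in control livers (0.95, SE 0.13, adjusted p = 2.448e-05), and Smpd1, the acid sphingomyelinase, also rose (0.60, SE 0.14, adjusted p = 0.00231). The risers numbered 2 without LPS replicate 1 or without control replicate 3.

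Of 30 other membrane proteins and transporters of the lysosome 10 rose and 7 fell (median log2 fold change 0.14), beside 31.3% higher and 31.0% lower among all tested genes, so the count of risers was near that background. With library totals in place of TMM 9 rose and 9 fell. Cd63, a tetraspanin of late endosomes, had 36.2, 41.5 and 41.1 CPM in LPS livers and 3.27, 3.65 and 3.40 CPM in control livers (3.52, SE 0.16, adjusted p = 6.186e-10). Slc15a3, a transporter of peptides and histidine, rose as well (2.37, SE 0.20). Tpcn1, a cation channel, fell (-2.85, SE 0.20), and so did Slc17a5, the sialic acid exporter (-1.64, SE 0.16). Cd164, which had the highest CPM of this list in both groups, had 357, 393 and 317 CPM in LPS livers and 274, 326 and 316 CPM in control livers and did not pass the test.

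Of the 5 proton pump genes 3 rose, 1 fell and 1 did not pass the test, with a median log2 fold change of 0.39. Among all tested genes 31.3% rose and 31.0% fell. Without LPS replicate 1 or without control replicate 3 only Atp6v0c was left as a riser among the 5. Atp6v0c, the proteolipid that forms the proton-carrying ring (chromosome 17, 24163866 to 24169702), had 73.3, 73.8 and 93.6 CPM in LPS livers and 50.4, 41.9 and 50.2 CPM in control livers (log2 fold change 0.76, SE 0.14, adjusted p = 2.930e-04). The groups were apart, although 2 pseudogenes match 465 bases of its 1183-base transcript at 97.2% and 99.78% identity, and the labels do not say how reads that fit several places were treated. Atp6v1h, a regulatory subunit of V1, had 75.4, 71.0 and 62.7 CPM in LPS livers and 53.3, 54.5 and 51.9 CPM in control livers (0.39, SE 0.12, adjusted p = 0.0119). That call ended without LPS replicate 1 (0.31) and without control replicate 3 (0.35).

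Atp6v1a, the catalytic subunit that binds ATP, averaged 53.1 ± 3.55 CPM in LPS livers and 62.0 ± 4.67 CPM in control livers, with no overlap but a difference that did not pass the test (log2 fold change -0.22, SE 0.12, adjusted p = 0.124). The 2 accessory proteins moved in opposite directions. Atp6ap1 had 44.8, 39.7 and 44.6 CPM in LPS livers and 56.9, 61.3 and 59.1 CPM in control livers (-0.46, SE 0.12, adjusted p = 0.00387). Atp6ap2, also known as the prorenin receptor, had 63.0, 48.2 and 41.2 CPM in LPS livers and 30.7, 42.4 and 33.5 CPM in control livers (0.51, SE 0.17, adjusted p = 0.0171). The lowest LPS liver of Atp6ap2 lay below the highest control liver, and its call ended without LPS replicate 1 (0.31), control replicate 1 (0.41) or control replicate 3 (0.45). Another gene, Gm36448, matches 438 bases of its 2324-base transcript at 98.4% identity, so its level is uncertain.

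With the other subunits and assembly factors, 27 V-ATPase genes were tested. Of the 10 in the V0 sector 5 rose and 2 fell, of the 9 in the V1 sector 4 rose and 0 fell, and of the 8 for assembly and regulation 3 rose and 2 fell. The 22 of these that were not among the 30 genes held 9 risers and 3 fallers, with a median log2 fold change of 0.17. Beside these counts, 31.3% of all tested genes rose and 31.0% fell. Atp6v1g1, a peripheral stalk subunit, had 117, 106 and 110 CPM in LPS livers and 26.8, 34.8 and 35.7 CPM in control livers (1.77, SE 0.14, adjusted p = 9.349e-08). Atp6v0a1, an isoform of the large V0 subunit, had 139, 149.8 and 184 CPM in LPS livers and 62.4, 49.3 and 49.1 CPM in control livers (1.56, SE 0.15, adjusted p = 6.839e-07). Tcirg1, a further isoform of that subunit that is named here after its values were seen, rose in a like manner (1.79, SE 0.18), while the isoform Atp6v0a2, named likewise, stood at 0.08 (SE 0.14) and did not pass the test. Wdr7, a partner of the assembly complex with Dmxl proteins, fell (-1.69, SE 0.17), as did the assembly chaperone Vma21 (-0.55, SE 0.14).

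**Figure D4:**
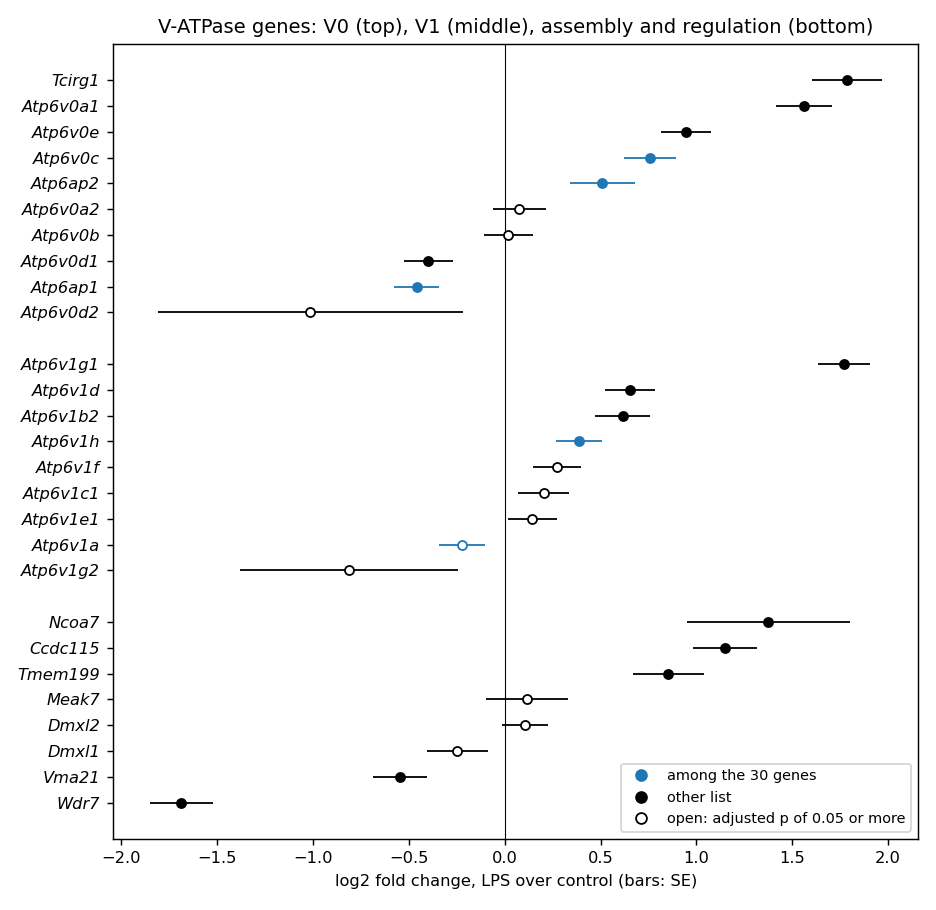
Log2 fold change, LPS over control, with SE bars for 27 V-ATPase genes grouped into V0, V1 and assembly or regulation. Blue marks the 5 of the 30 genes, and filled points passed the test. Tcirg1 (1.79), Atp6v1g1 (1.77) and Atp6v0a1 (1.56) lie farthest to the right and Wdr7 (-1.69) farthest to the left.

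Of 16 genes that sort enzymes to the lysosome 6 fell, a share near the 31.0% of all tested genes, and 2 rose, where 31.3% of all tested genes did (median log2 fold change -0.31). The 2 receptors for mannose 6-phosphate, the tag that directs hydrolases to lysosomes, moved in opposite directions. Igf2r, the larger receptor, had 13.1, 11.7 and 9.70 CPM in LPS livers and 37.7, 37.8 and 34.8 CPM in control livers (-1.68, SE 0.15, adjusted p = 3.733e-07). M6pr, the smaller receptor, had 94.9, 85.8 and 91.4 CPM in LPS livers and 65.1, 72.3 and 73.8 CPM in control livers (0.37, SE 0.12, adjusted p = 0.0148). Vps35, a core subunit of the retromer that returns such receptors, fell (-1.13, SE 0.12), and Gga3, an adaptor, rose (0.69, SE 0.19). Without LPS replicate 1 the list had 1 riser in place of 2.

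**Figure D5:**
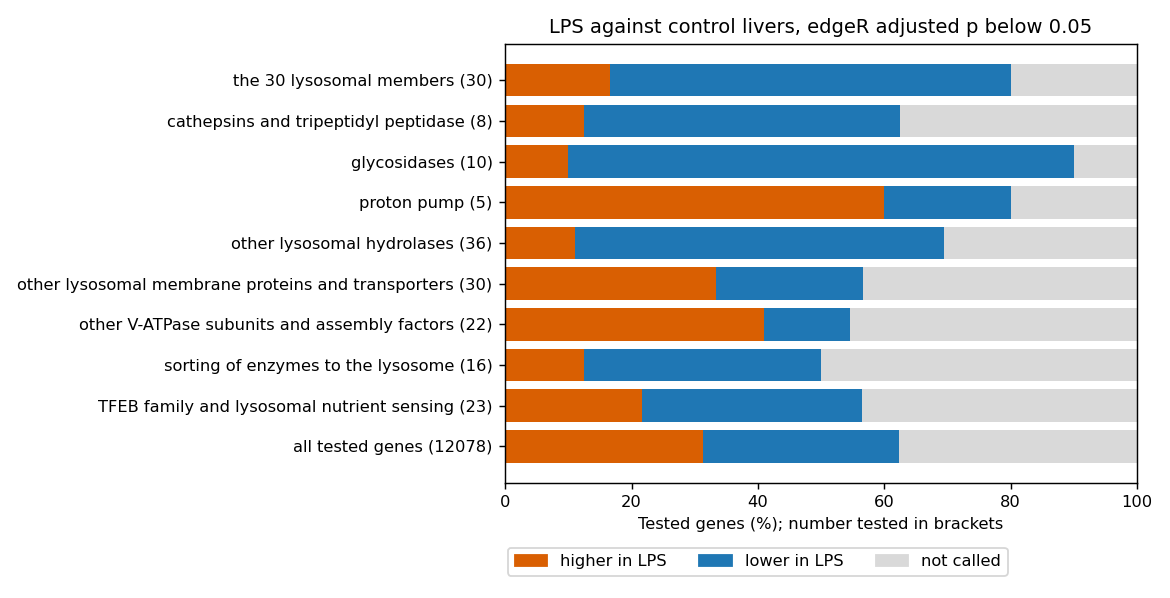
Share of tested genes that were higher, lower or not called in LPS against control livers, for the 30 genes, 3 of their role groups, 5 further lists and all 12078 tested genes (bottom bar). The glycosidases have 8 of 10 genes in the lower class and the proton pump 3 of 5 in the higher class, while all tested genes are split at 31.3% higher and 31.0% lower.

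Exons of some of these genes overlap those of neighbours, and the labels do not say whether reads were assigned by strand. Ctsd shares 38% of its exon bases with Gm49369 on the same strand and Glb1 shares 6.89% with Tmppe. On the opposite strand, Ctsb overlaps Fdft1 over 16.3%, Ctsa overlaps Pltp over 13.6%, Hexa overlaps Tmem202 over 12.8% and Lamp1 overlaps Grtp1 over 11.2% of exon bases. Their values may therefore include reads of these neighbours. The transcript taken for Ctsl overlapped no other exon and matched no other transcript at 95% identity or more over 100 bases.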

How the data were processed

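Liver RNA was sequenced in 3 LPS and 3 control libraries, and the authors deposited whole-number counts per gene, 22488 genes a library, in fields of 8 characters that shorten long names. Per the submitters' processing notes, bcl2fastq 2.0, HISAT2, StringTie, DESeq2, limma and the build mm10 were used; their roles, the gene models, the use of strand and the handling of multiply mapped reads are details not given in the sources used here. Genes were named by Entrez identifier (20722 genes, 98.99% of counts). Counts were tested with edgeR 4.0.16 (R 4.3.3), TMM scaling, filterByExpr (count minimum 10, total 15) and the quasi-likelihood test, with Benjamini-Hochberg adjustment over 12078 genes at 0.05. The biological coefficient of variation was 16.44%. The fit was tested on simulated data with known changes. Far fewer genes changed there than here, and all genes had the same dispersion, so it gives no error rate for these data. Positions and the length of 1 principal transcript a gene came from GENCODE M21 (GRCm38), and promoters from RefSeq.

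Members and lists were chosen with earlier results of these data known. Named genes are the 30, and from each other list the 2 with the smallest adjusted p in each direction and that with the highest mean CPM over all 6 libraries. Alternatives were DESeq2 1.42.0, other scalings, no filter, a replicate block and leaving out each library. Counts limit precision: the smallest count of any of the 30 genes was 24.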

Additional observations from a re-analysis of the deposited data

How the results depend on the processing

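Over 11 alternatives (DESeq2, relative log expression, library totals, no filter on low counts, a replicate block and each library left out), 21 of the 24 calls among the 30 genes kept their direction and their side of the threshold: 18 lower and 3 higher (Ctsl, Gla and Atp6v0c). The calls of Lamp1, Atp6v1h and Atp6ap2 each ended when certain libraries were left out. The number of the 30 genes lower in LPS livers was 18 to 19 and the number higher 3 to 5 on leaving out 1 library. Likewise the risers numbered 2 to 4 among other hydrolases, 1 to 2 among sorting genes and 3 to 5 in the TFEB and nutrient-sensing list. Without the filter on low counts the cathepsin inhibitors had 2 risers in place of 1. Directions reversed for 2 genes that never passed the test: Scarb2 (-0.0039 with library totals, -0.0297 without control replicate 1, and up to 0.11 on leaving out other libraries) and Ctsc (-0.17 to 0.30 on leaving out 1 library). The cause was not tested. Library totals gave 3439 higher and 3981 lower genes among all tested, against 3781 higher and 3747 lower with TMM. With the union of exons as length, chosen after seeing the data, the mean share of Ctsl was 55.6% in LPS livers and 16.6% in control livers. Same-numbered LPS and control libraries had correlations of their deviations of -7.448e-04, 0.104 and 0.0352. Differently numbered LPS and control libraries had correlations of -0.121 to 0.0741. Deviations within a group of 3 libraries are tied to each other, so these values cannot decide whether the numbers pair the libraries. With the replicate block, 5 of the 30 genes were higher and 19 lower, and 3780 of all tested genes were higher and 3766 lower. Depth limits Tfeb, Glb1 and Gla most, the genes with the fewest counts.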
